A study of Fagopyrum tataricum with 9 samples.

Results

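The change from the green fruit stage to the discoloration stage was followed in seeds of Tartary buckwheat (Fagopyrum tataricum, cultivar XIQIAO NO.2) by RNA-seq. The 3 libraries of seeds at 19 days post anthesis (DPA), the discoloration stage, were compared with the 3 libraries of seeds at 13 DPA, the green fruit stage. These are 6 of the 9 libraries of the series. All 33940 genes of the count table entered the comparison, and 23609 passed the filter on low counts and were tested. No treatment, mutant or second cultivar was used. Both stages came from field-grown plants of 1 cultivar. According to the labels, seeds of different stages were picked from the same individual and 3 plants made the 3 replicates, but they do not say that the replicate number marks the plant. The remaining 3 libraries, from 25 DPA, took part in the filter, the scaling and the estimate of the spread, and are given beside a few genes.

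In a developing seed, a period of cell division and expansion under high auxin, gibberellin and cytokinin gives way to filling with starch and storage protein, a phase in which abscisic acid (ABA) and its bZIP transcription factors are known to act. Auxin enters cells through AUX1-type influx carriers, leaves them through efflux carriers, and acts by removing Aux/IAA repressors from auxin response factors (ARF). Tartary buckwheat is known for rutin, a glycoside of the flavonol quercetin, which is made from phenylalanine through phenylalanine ammonia-lyase (PAL), chalcone synthase (CHS), chalcone isomerase (CHI), flavonoid hydroxylases, flavonol synthase (FLS) and glycosyltransferases.

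The 19 DPA libraries held 22337188 to 23108799 counts and the 13 DPA libraries 22002318 to 25811462. A count above 0 was found for 26268 to 27305 genes at 19 DPA and for 27811 to 28393 genes at 13 DPA. Levels are given as FPKM (fragments per kilobase of gene length, relative to the size of the library) after scaling by TMM factors, which correct for a few transcripts that take up much of a library, and values of 3 libraries stand in the order of replicates 1, 2 and 3. A library that stood apart was 13 DPA replicate 2. For each library a line was drawn over all tested genes from the mean of 13 DPA (position 0) to that of 19 DPA (position 1). The library placed was left out of its own stage mean, so the lines differ between libraries. On these lines 13 DPA replicate 2 lay at 0.49, while 13 DPA replicates 1 and 3 lay at -0.05 and -0.10. The 19 DPA libraries lay at 0.76, 1.11 and 0.66. In addition, 82 genes were at least 4-fold higher in both libraries numbered 3 than in the other 4 libraries of the comparison, against 1 such gene for number 2 and 0 for number 1. Libraries of the 2 stages with the same number deviated from their stage means together (r across genes of 0.35, 0.49 and 0.59). For different numbers r was -0.48 to -0.11, but deviations from a mean of 3 libraries sum to 0, so these values are not independent of the former. Replicate 2 also lay furthest towards 19 DPA at both stages (0.49 and 1.11), and its part in these r was not tested. Whether the number marks a plant is thus not settled. A paired fit of the 6 libraries with the replicate number as a block is given for each gene named and each gene family described where it changed a call.

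Seeds at 19 DPA had 970 genes that were higher and 1054 that were lower than at 13 DPA. These differentially expressed genes (DEGs) had a Benjamini-Hochberg adjusted p of at most 0.05 in edgeR's quasi-likelihood test and a change of at least 2-fold, and made up 8.57% of the genes tested (4.11% higher and 4.46% lower). The genes that fell did so by larger steps. A change of at least 8-fold was reached by 248 of the lower DEGs and 120 of the higher DEGs, and a change of at least 16-fold by 108 lower and 29 higher DEGs. The median log2 fold change, given throughout as 19 DPA minus 13 DPA, was -2.17 among the lower DEGs, 1.79 among the higher DEGs and -0.03 over all genes tested. The direction was the same in all 3 same-numbered pairs for 970 of 970 higher and 1054 of 1054 lower DEGs, and the 3 and 3 libraries did not overlap for 970 and 1050 of them. For comparison, 15.9% of all genes tested had all 19 DPA libraries above all 13 DPA libraries and 16.3% had all of them below. The DEGs were chosen by the same contrast on these libraries, so their shared direction and lack of overlap are a description.

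The number of DEGs depended on single libraries. When replicates 1, 2 and 3 of 19 DPA were left out in turn it was 1037, 672 and 1178, and when those of 13 DPA were left out it was 402, 3065 and 724. The 3065 genes called without 13 DPA replicate 2 were 12.6% of those then tested (7.19% higher and 5.42% lower). With total counts in place of TMM factors, under which the tested genes had a median log2 fold change of -0.85, the split was 595 higher and 7346 lower. The paired fit called 3424 genes (1762 higher, 1662 lower) out of 23126 tested, which is 14.8% (7.62% higher and 7.19% lower), and it included 925 of the 970 higher and 1008 of the 1054 lower DEGs.

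The direction of change went with the level of the gene. Among the 2920 genes with a mean below 1 TMM-scaled FPKM over the 6 libraries, 70 were higher and 132 lower at 19 DPA. That is 2.4% and 4.52%, against 4.11% and 4.46% of all genes tested, so the share of lower genes was near that of all genes. Among the 892 genes between 100 and 1000 FPKM, 104 were higher and 11 lower (11.7% and 1.23%). Of the 79 genes above 1000 FPKM, 9 were higher (11.4%) and 0 lower, and their median log2 fold change was 2.25. All 19 DPA libraries lay above all 13 DPA libraries for 60 of them and below for 2. That is 75.9% and 2.53%, against 15.9% and 16.3% of all genes tested. In the paired fit 54 of these 79 genes were higher and 1 was lower, against 7.62% and 7.19% of all genes. The level classes were formed on the same 6 libraries, so these counts are a description. New genes, which the authors assembled outside the annotation, were higher in 110 and lower in 38 of 1585 tested. Annotated genes were higher in 860 and lower in 1016 of 22024 tested. The share called was 9.34% of new and 8.52% of annotated genes, near the 8.57% of all genes.

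**Figure D1:**
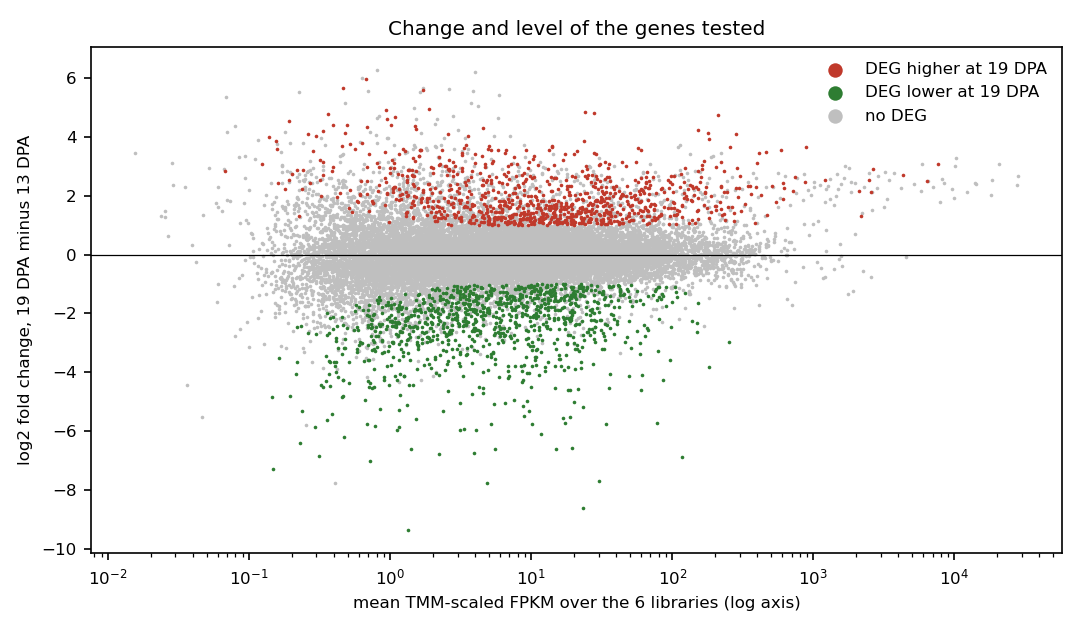
Each point is 1 of the 23609 genes tested, with its mean TMM-scaled FPKM over the 6 libraries on a log axis and its fitted log2 fold change (19 DPA minus 13 DPA) on the vertical axis. Red points are the 970 DEGs higher at 19 DPA, green points the 1054 DEGs lower at 19 DPA and grey points the remaining genes; the genes above 1000 FPKM lie mostly above 0, and most of them are grey.

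A handful of transcripts took up a much larger part of the seed RNA at 19 DPA. The 10 genes with the largest mean share of the counts held 31.4%, 36.5% and 29.0% of the counts in the 19 DPA libraries, against 8.81%, 17.9% and 4.95% in the 13 DPA libraries. The groups did not overlap, and among the 13 DPA libraries replicate 2 was the highest. The mean shares were 32.3 ± 3.82% at 19 DPA and 10.6 ± 6.67% at 13 DPA (SD, n = 3 each). The difference was 21.7 percentage points (two-sided exact permutation test, p = 0.1, the smallest p that 3 against 3 libraries allow). The 10 genes were picked by their share in these same 6 libraries, so the difference, its p and the calls below are a description. Each of the 10 genes was higher in all 19 DPA libraries than in any 13 DPA library, with log2 fold changes of 1.79 to 3.09. Of all genes tested, 15.9% lay wholly above in this way. Even so, 0 of the 10 were DEGs in edgeR's fit, with an unadjusted p under 0.05 for 10 and adjusted p of 0.0716 to 0.109. The paired fit called 9 of them, and the fit without 13 DPA replicate 2 and DESeq2 both called 10. Over all genes, the share called was 8.57% in edgeR's fit, 14.8% in the paired fit and 12.6% without 13 DPA replicate 2. DESeq2 called 3246 of the 23609 genes. The files pair none of these identifiers with a product.

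**Figure D2:**
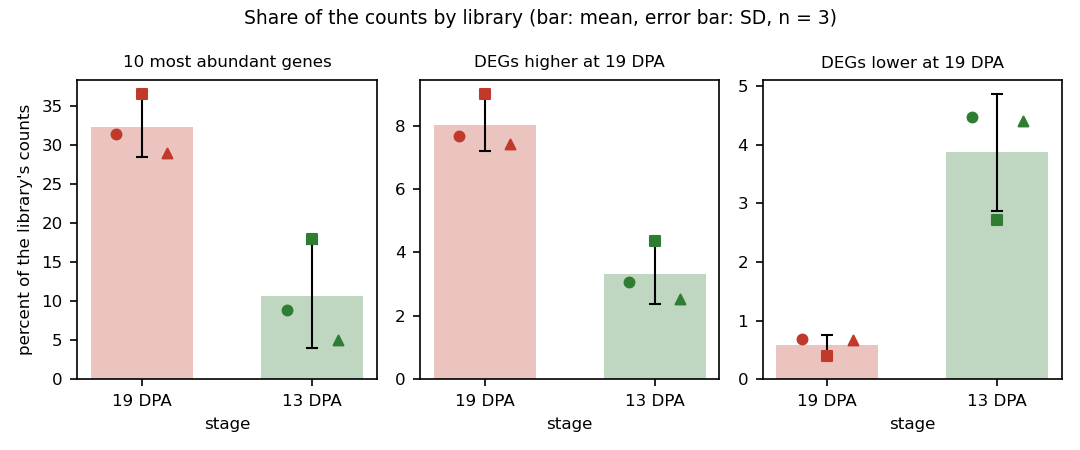
Percent of a library's counts held by the 10 most abundant genes, by the 970 DEGs higher and by the 1054 DEGs lower at 19 DPA. Points are libraries (circle replicate 1, square replicate 2, triangle replicate 3), bars the mean and error bars the SD of 3 libraries; replicate 2 holds the highest share of the abundant genes at both stages, 36.5% at 19 DPA and 17.9% at 13 DPA.

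The DEGs themselves held a modest part of the counts. The 970 higher DEGs made up 7.68%, 9.0% and 7.44% of the counts at 19 DPA, against 3.06%, 4.37% and 2.52% at 13 DPA. The 1054 lower DEGs made up 0.691%, 0.402% and 0.669% at 19 DPA, against 4.47%, 2.72% and 4.40% at 13 DPA. These sets were chosen by the same contrast, so the shares are a description. Outside the gene lists used below, the higher DEGs with the largest gain in scaled counts were FtPinG0008433900.01, at 6132, 11262 and 6083 TMM-scaled CPM (counts relative to the scaled library size) at 19 DPA, against 893, 1638 and 240.3 at 13 DPA (log2 fold change 3.08 ± 0.74 (SE), adjusted p = 0.0326), and FtPinG0000621200.01, at 3273, 7356 and 2809 against 714, 1314 and 353 (2.50 ± 0.60, adjusted p = 0.0337). The lower DEGs with the largest loss were FtPinG0009190200.01, at 78.3, 50.8 and 55.6 TMM-scaled CPM at 19 DPA, against 520.0, 491 and 451 at 13 DPA (log2 fold change -2.98 ± 0.42, adjusted p = 0.00846), and FtPinG0000553000.01, at 38.3, 3.66 and 19.4 against 356, 284 and 237 (-3.84 ± 0.71, adjusted p = 0.0166). None of the 4 overlapped between stages, and the lowest level of FtPinG0000553000.01 was in 19 DPA replicate 2. These identifiers are not paired with a product in the sources used here.

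Phytohormone genes were taken as a list of 277 identifiers for auxin, gibberellin, ABA and cytokinin, of which 276 matched the files and 191 were tested. DEGs made up 11.5% of them, 10 higher and 12 lower, against 8.57% of all genes, and the median log2 fold change was -0.09, against -0.03 over all genes. The whole list held 0.335%, 0.256% and 0.307% of the counts at 19 DPA, against 0.682%, 0.693% and 0.613% at 13 DPA, without overlap (difference -0.363 percentage points, exact permutation test, p = 0.1). With the 50 most abundant genes taken out of the total, the difference was -0.249 percentage points (exact permutation test, p = 0.1). A large part of the list's counts came from 1 gene that was not called, FtPinG0000464100.01. It had 18005, 11672 and 7871 counts at 19 DPA, against 48702, 79349 and 30257 at 13 DPA. In the paired fit 41 of 187 tested genes of the list were called, 23 higher and 18 lower, against 14.8% of all genes. With total counts 78 genes of the list were called, 4 higher and 74 lower. Leaving out replicates 1, 2 and 3 of 19 DPA in turn gave 11, 6 and 12 DEGs in the list, and leaving out those of 13 DPA gave 5, 38 and 9. All 22 DEGs had non-overlapping libraries, as did 2020 of the 2024 DEGs over all genes, so this is a description. Of the 22, FtPinG0002143600.01 and FtPinG0006187600.01 were called in all 19 alternative fits and limits, as were 293 of the 2024 DEGs.

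Most auxin influx carriers fell. These plasma membrane proteins carry auxin into the cell together with protons, and 4 of the 6 members tested were lower at 19 DPA, against 4.46% of all genes. FtPinG0006908400.01 stood at 7.60, 2.102 and 4.66 TMM-scaled FPKM at 19 DPA, against 43.4, 28.3 and 23.4 at 13 DPA, a log2 fold change of -2.72 ± 0.54 (SE; adjusted p = 0.0194). Its lowest level was in 19 DPA replicate 2, and every 19 DPA library was below every 13 DPA library. FtPinG0007643300.01 stood at 2.28, 1.995 and 1.65 FPKM at 19 DPA, against 6.23, 5.90 and 6.87 at 13 DPA (log2 fold change -1.68 ± 0.33, adjusted p = 0.018), and FtPinG0003888700.01 at 5.0, 3.83 and 3.64, against 13.9, 11.6 and 11.1 (-1.55 ± 0.31, adjusted p = 0.0199). In both the replicates of a stage lay close together and far from the other stage. The weakest of the 4, FtPinG0004311300.01, had 0.815, 0.934 and 0.981 FPKM at 19 DPA, against 2.22, 2.39 and 2.29 at 13 DPA (-1.33 ± 0.34, adjusted p = 0.0378, and 0.0568 without 13 DPA replicate 2). The most abundant carrier did not follow them. FtPinG0005765500.01 had 80.4, 81.1 and 72.6 FPKM at 19 DPA, against 59.4, 51.8 and 59.4 at 13 DPA, all 19 DPA libraries being the higher ones, though its change turned to -0.38 with total counts (log2 fold change 0.46 ± 0.28, adjusted p = 0.339, no call).

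Of the 9 auxin efflux carriers tested, which export auxin from cells, 1 was a DEG (11.1%, against 8.57% of all genes). The paired fit called 2 of the 9, both higher, against 14.8% of all genes. FtPinG0004913500.01 had 10.3, 7.94 and 5.36 TMM-scaled FPKM at 19 DPA, against 3.04, 3.85 and 2.84 at 13 DPA (log2 fold change 1.28 ± 0.34, adjusted p = 0.0437). The most abundant efflux carrier, FtPinG0009541700.01, had 5.79, 4.44 and 3.36 FPKM at 19 DPA, against 6.41, 8.02 and 7.28 at 13 DPA, and was not called (-0.68 ± 0.27, adjusted p = 0.143). Its libraries did not overlap either, but its levels ran in the other direction.

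The Aux/IAA and ARF group, repressors and transcription factors of the auxin response, had 58 tested members with a median log2 fold change of -0.27. All 19 DPA libraries were below all 13 DPA libraries in 20 of them and above in 7, and 2 were DEGs higher and 1 lower. Over all genes tested, 16.3% lay wholly below and 15.9% wholly above. DEGs were 5.17% of this group, against 8.57% of all genes. The paired fit called 9 of 55 tested, 5 higher and 4 lower, while it called 14.8% of all genes. FtPinG0001577700.01 rose most, to 33.8, 40.1 and 16.4 TMM-scaled FPKM at 19 DPA, against 6.53, 10.6 and 3.30 at 13 DPA (log2 fold change 2.14 ± 0.45, adjusted p = 0.0229). Its lowest library was replicate 3 at both stages. Novel02020, an ARF gene, reached 16.1, 20.7 and 14.05 FPKM at 19 DPA, against 7.36, 8.14 and 6.54 at 13 DPA (1.21 ± 0.29, adjusted p = 0.0327). FtPinG0008442000.01 fell to 2.25, 1.29 and 2.84 FPKM at 19 DPA, against 7.92, 4.23 and 11.6 at 13 DPA (-1.89 ± 0.40, adjusted p = 0.0232). The other 2 genes assigned to ARF were not called. FtPinG0008443000.01 had 1.78, 0.379 and 0.834 FPKM at 19 DPA, against 2.79, 1.84 and 3.26 at 13 DPA, with no overlap (-1.39 ± 0.51, adjusted p = 0.12, and 0.0368 in the paired fit, which called it). FtPinG0000807700.01 had 1.82, 1.74 and 2.16 FPKM at 19 DPA, against 2.12, 2.002 and 3.69 at 13 DPA, with overlap. The most abundant member, FtPinG0004315700.01, had 101, 87.6 and 84.3 FPKM at 19 DPA, against 115, 106 and 69.6 at 13 DPA, also with overlap (log2 fold change -0.09 ± 0.21).

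Among the 27 tested ARG7-type genes, small auxin-induced transcripts of the SAUR class, 1 was a DEG, with 7 members wholly above and 7 wholly below. That is 3.7% called, against 8.57% of all genes, of which 15.9% lay wholly above and 16.3% wholly below. The paired fit called 6 of the 27, 4 higher and 2 lower, against 14.8% of all genes. The DEG without pairing, FtPinG0002363800.01, stood at 154, 167 and 152 TMM-scaled FPKM at 19 DPA, against 48.9, 43.95 and 43.8 at 13 DPA (log2 fold change 1.79 ± 0.25, adjusted p = 0.0087). The 3 replicates of each stage were nearly level. FtPinG0002594300.01, the most abundant member, had 163, 168 and 77.9 FPKM at 19 DPA, against 91.1, 114 and 41.5 at 13 DPA, overlapping through the low replicate 3 of 19 DPA (0.73 ± 0.39, adjusted p = 0.271). Of the auxin receptor genes without a family name, 1 of 4 was higher, against 4.11% of all genes. FtPinG0006955500.01 had 42.7, 53.3 and 33.5 FPKM at 19 DPA, against 18.6, 22.4 and 18.1 at 13 DPA (1.13 ± 0.26, adjusted p = 0.0278). The 2 germin-type receptor genes both lay wholly below and missed the threshold, and the paired fit called both as lower. The more abundant, FtPinG0008266700.01, had 8.36, 3.33 and 16.3 FPKM at 19 DPA, against 53.6, 17.6 and 38.4 at 13 DPA (log2 fold change -1.96 ± 0.58, adjusted p = 0.065, and 0.013 in the paired fit, which called it). The dormancy-associated DRM1/ARP gene FtPinG0000464100.01 was the most abundant gene named for the auxin list, at 1507, 1274 and 671 FPKM at 19 DPA, against 2321, 4336 and 1405 at 13 DPA. The stages overlapped and it was not called (-1.22 ± 0.50, adjusted p = 0.155).

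Among ABA response factors more genes rose than fell, except with total counts, which gave 1 higher and 2 lower. Of the 10 tested bZIP genes of the ABA response, which encode factors such as ABI5 that switch on genes of seed maturation, 3 were higher and 1 was lower at 19 DPA. DEGs made up 40% of these bZIP genes, against 8.57% of all genes. The most abundant was the gene annotated as ABI5, FtPinG0003523300.01, at 65.3, 96.6 and 63.9 TMM-scaled FPKM at 19 DPA, against 13.9, 30.6 and 12.7 at 13 DPA, with a log2 fold change of 1.98 ± 0.38 (SE; adjusted p = 0.0171). Replicate 2 was the highest at both stages, and the groups did not overlap. At 25 DPA the same gene stood at 192, 213 and 274 FPKM. The ABI5-like gene FtPinG0003196200.01 had 18.4, 27.4 and 16.2 FPKM at 19 DPA, against 7.11, 9.30 and 4.35 at 13 DPA (1.58 ± 0.40, adjusted p = 0.0382), and FtPinG0006458700.01 had 20.3, 23.98 and 17.5 FPKM, against 7.99, 14.2 and 7.24 (1.07 ± 0.26, adjusted p = 0.0364). The call of FtPinG0006458700.01 held in 9 of the 19 alternative fits and limits. The second gene described as ABI5-like, FtPinG0003012600.01, was not called, at 12.5, 14.99 and 10.99 FPKM at 19 DPA, against 11.9, 10.96 and 7.16 at 13 DPA, with overlap. The bZIP gene that fell, FtPinG0002143600.01, stood at 5.41, 3.48 and 5.12 FPKM at 19 DPA, against 25.4, 12.7 and 16.6 at 13 DPA (-1.96 ± 0.28, adjusted p = 0.0091).

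The 8 tested cytochrome P450 genes of ABA metabolism, a family whose CYP707A members inactivate ABA by hydroxylation, had 1 member higher and 1 lower. DEGs made up 25% of these P450 genes, against 8.57% of all genes. FtPinG0002387400.01 reached 11.8, 11.5 and 15.98 TMM-scaled FPKM at 19 DPA, against 4.42, 5.66 and 3.09 at 13 DPA (log2 fold change 1.58 ± 0.25, adjusted p = 0.0106). FtPinG0004462100.01, the most abundant of the family, fell to 1.94, 5.66 and 4.26 FPKM at 19 DPA, against 53.9, 8.93 and 33.1 at 13 DPA (-3.02 ± 0.62, adjusted p = 0.0215). In this gene 13 DPA replicate 2 was near the 19 DPA libraries, and the call was lost in the paired fit (adjusted p = 0.0854). Another P450 gene, FtPinG0003614600.01, had 3.17, 2.94 and 2.99 FPKM at 19 DPA, against 4.91, 4.37 and 3.10 at 13 DPA, with overlap and no call. The ABA receptors of the PYR/PYL type gave 0 DEGs among 15 tested in edgeR without pairing (1 had an unadjusted p under 0.05, and DESeq2 called 0), and the paired fit called 1, which was higher. PYL4 (FtPinG0005799600.01) had 2.81, 2.21 and 2.40 FPKM at 19 DPA, against 2.72, 5.89 and 1.27 at 13 DPA, and PYL10 (FtPinG0002311400.01) had 0.75, 0.257 and 0.885 FPKM, against 0.427, 0.309 and 0.46. Both overlapped, as did the most abundant receptor, FtPinG0001214600.01, at 57.4, 25.5 and 47.9 FPKM, against 55.01, 46.9 and 49.1. The log2 fold change of the 15 receptors ran from -0.90 to 1.003.

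The lowest log2 fold change of the hormone list was found among gibberellin genes. GASA genes encode small cysteine-rich peptides induced by gibberellin, and 3 of 9 tested were lower, while the paired fit called 3 lower and 2 higher. Over all genes tested 4.46% were lower, and the paired fit called 7.19% lower and 7.62% higher. FtPinG0006187600.01 had 0, 2 and 1 counts at 19 DPA, against 170, 37 and 192 counts at 13 DPA, which is 0, 0.276 and 0.108 against 10.2, 2.56 and 11.3 TMM-scaled FPKM (log2 fold change -5.95 ± 0.93, adjusted p = 0.0104). With counts near 0 at 19 DPA the size of this change is loosely set. FtPinG0006919600.01 had 9.94, 10.96 and 8.65 FPKM at 19 DPA, against 67.7, 23.2 and 45.7 at 13 DPA (-2.21 ± 0.39, adjusted p = 0.0142), and FtPinG0006417500.01 had 5.83, 5.03 and 5.66, against 22.7, 15.9 and 20.3 (-1.83 ± 0.40, adjusted p = 0.026). In the first 2 of these genes 13 DPA replicate 2 was the lowest 13 DPA library by a wide margin. The most abundant GASA gene, FtPinG0006350100.01, was not called, at 284, 250.0 and 208 FPKM at 19 DPA, against 525, 219 and 367 at 13 DPA, with overlap through replicate 2.

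Gibberellin oxidoreductases, the class that holds the last synthetic and the inactivating enzymes of the hormone, had 1 member higher and 1 lower among 14 tested, and 2 higher and 1 lower in the paired fit. DEGs were 14.3% of these genes, against 8.57% of all genes, of which the paired fit called 14.8%. FtPinG0002330600.01 had 2.19, 2.80 and 2.61 TMM-scaled FPKM at 19 DPA, against 0.376, 0.485 and 0.321 at 13 DPA (log2 fold change 2.67 ± 0.65, adjusted p = 0.034). FtPinG0007560600.01 had 5, 0 and 1 counts at 19 DPA, against 108, 38 and 76 counts at 13 DPA (-4.27 ± 0.89, adjusted p = 0.0292). Of the 4 gibberellin receptor genes, 1 was lower, against 4.46% of all genes. FtPinG0006952100.01 had 1.86, 1.10 and 1.37 FPKM at 19 DPA, against 11.1, 2.90 and 5.76 at 13 DPA (-2.18 ± 0.47, adjusted p = 0.0246). The most abundant receptor, FtPinG0004588200.01, was below in every library as well, by less than 2-fold (-0.58 ± 0.17, adjusted p = 0.0614, no call). Cytokinin genes gave no DEG in edgeR without pairing. There were 0 among 8 LOG genes, which activate cytokinin (3 with an unadjusted p under 0.05 and 1 called by DESeq2), of which the paired fit called 2 as higher, and 0 among 5 cytokinin oxidoreductases, which degrade it (0 by either measure).

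**Figure D3:**
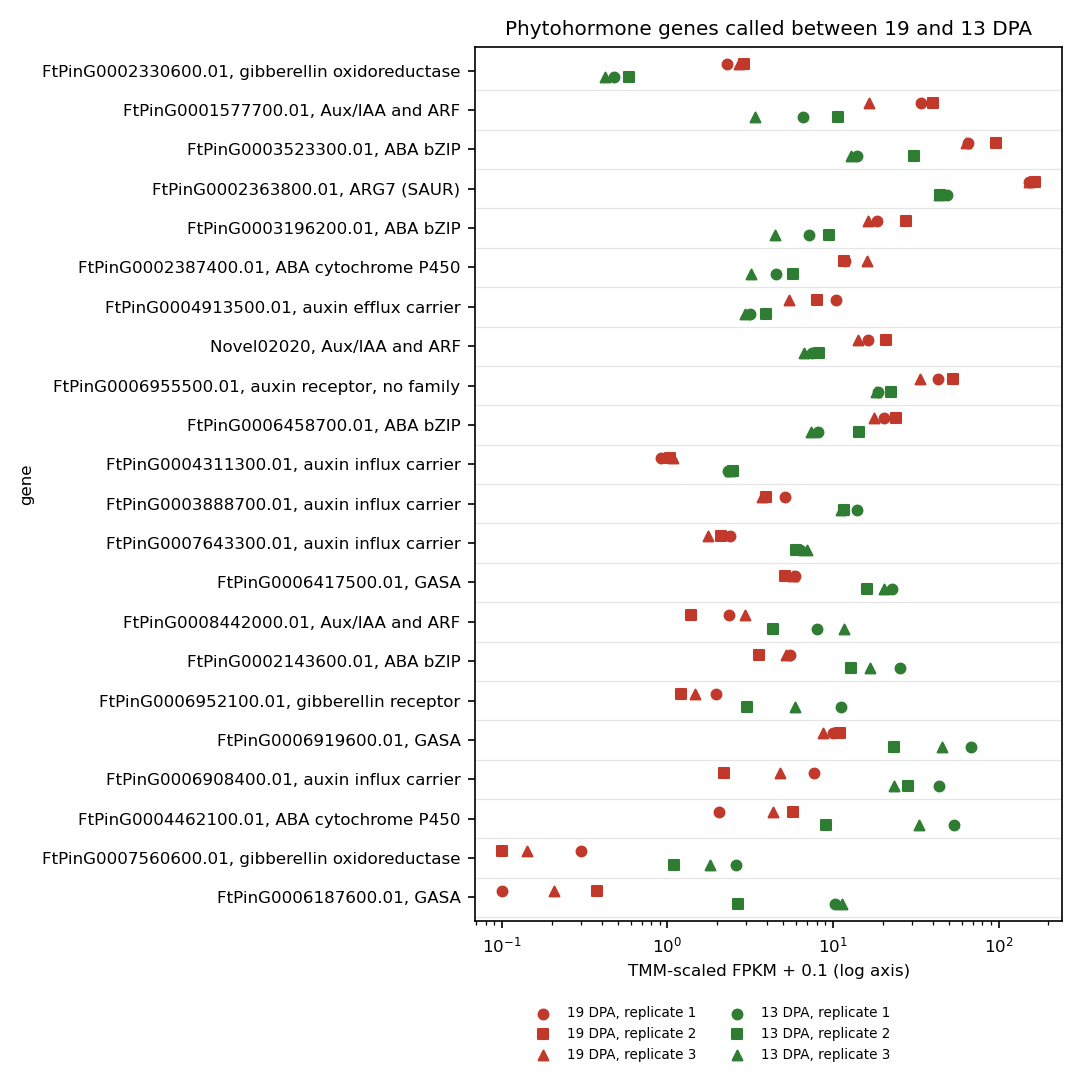
Levels of the 22 phytohormone DEGs, 1 gene a row in the order of their log2 fold change, as TMM-scaled FPKM + 0.1 on a log axis. Red symbols are the 19 DPA libraries and green symbols the 13 DPA libraries (circle, square and triangle for replicates 1, 2 and 3); the 10 upper genes are higher and the 12 lower genes are lower at 19 DPA, with no overlap in any row.

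More flavonoid genes rose than fell after TMM scaling. Of 47 listed genes 31 were tested, 7 of them were higher and 1 was lower at 19 DPA (25.8% called, against 8.57% of all genes), and their median log2 fold change was 0.63, against -0.03 over all genes. All 19 DPA libraries were above all 13 DPA libraries in 10 of the 31 and below in 2, against 15.9% and 16.3% of all genes. The list's share of the counts was 0.161%, 0.168% and 0.122% at 19 DPA, against 0.164%, 0.172% and 0.110% at 13 DPA (difference 0.00185 percentage points, exact permutation test, p = 0.9). With the 50 most abundant genes of the 6 libraries taken out of the total, the difference in share was 0.103 percentage points (exact permutation test, p = 0.2). With total counts in place of TMM factors, 3 genes of the list were higher and 5 lower, and in the paired fit 10 were higher and 1 lower. Leaving out replicates 1, 2 and 3 of 19 DPA in turn gave 3, 3 and 4 DEGs in the list, and leaving out those of 13 DPA gave 1, 10 and 2. Leaving out those of 25 DPA, which enter the filter, the TMM factors and the spread, gave 5, 5 and 4. Of the 8 flavonoid DEGs, 0 were called in all 19 alternative fits and limits, against 293 of the 2024 DEGs over all genes.

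At the entry of the pathway, FtPinG0008236900.01, the most abundant of 3 PAL genes, stood at 93.9, 127 and 98.7 TMM-scaled FPKM at 19 DPA, against 36.9, 63.5 and 22.5 at 13 DPA. The groups did not overlap, with a log2 fold change of 1.38 ± 0.41 and an adjusted p of 0.0664, which missed the threshold. In the paired fit it was called (adjusted p = 0.0143), as it was without 13 DPA replicate 2 (0.0171). The gene named FtPAL (FtPinG0003900700.01) differed in direction, at 31.4, 44.01 and 25.6 FPKM at 19 DPA, against 61.8, 64.9 and 24.5 at 13 DPA, with overlap and no call. Of the 3 PAL genes tested, 2 had a negative log2 fold change, the median was -0.56, and 0 were DEGs. An unadjusted p under 0.05 was found for 2 of the 3, FtPAL not among them. FtCHS (FtPinG0008131000.01), one of the most abundant genes of the list, had 383, 361 and 163 FPKM at 19 DPA, against 147, 186 and 66.9 at 13 DPA. Replicate 3 was the lowest at both stages, so the groups overlapped, and the gene was called only in the paired fit among the settings tried (log2 fold change 1.18 ± 0.54, adjusted p = 0.206, and 0.0145 in the paired fit). FtCHI (FtPinG0002790600.01) had 59.8, 77.7 and 36.6 FPKM at 19 DPA, against 48.2, 51.3 and 28.6 at 13 DPA, with overlap and no call.

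Flavonol synthase makes quercetin and other flavonols, and 1 of 6 tested FLS genes was a DEG (16.7%, against 8.57% of all genes). FtPinG0008448800.01 had 4.80, 9.14 and 1.40 TMM-scaled FPKM at 19 DPA, against 0.642, 0.845 and 0.394 at 13 DPA (log2 fold change 3.02 ± 0.67, adjusted p = 0.0264). The spread at 19 DPA was wide, with replicate 2 highest and replicate 3 lowest. The abundant gene was FtFLS (FtPinG0006907100.01), at 389.8, 589.6 and 368 FPKM at 19 DPA, against 205, 314 and 146 at 13 DPA. Its libraries did not overlap, the log2 fold change was 1.02 ± 0.35, and the adjusted p was 0.1 and 0.0212 in the paired fit, which called it. FtPinG0006907000.01, an FLS gene with the neighbouring identifier, had 14.9, 37.7 and 15.1 FPKM at 19 DPA, against 30.4, 26.8 and 17.6 at 13 DPA, with overlap (log2 fold change -0.14 ± 0.46).

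Flavonoid 3'-monooxygenases add the hydroxyl group that separates quercetin from kaempferol, and 2 of 4 tested were higher, against 4.11% of all genes. FtPinG0003629700.01 had 6.70, 9.09 and 5.49 TMM-scaled FPKM at 19 DPA, against 3.50, 3.88 and 3.08 at 13 DPA (log2 fold change 1.02 ± 0.25, adjusted p = 0.0361), and FtPinG0003629500.01 had 4.26, 1.48 and 3.26, against 1.33, 0.957 and 0.702 (1.59 ± 0.42, adjusted p = 0.0428, and 0.0673 without 13 DPA replicate 2). The call of FtPinG0003629500.01 held in 9 of the 19 alternative fits and limits. Both genes had low levels compared with FtF3'H (FtPinG0002353900.01), which stood at 31.5, 59.03 and 27.4 FPKM at 19 DPA, against 35.8, 38.3 and 31.6 at 13 DPA, with overlap and no call. The 2 tested flavonoid 3',5'-hydroxylases gave 0 DEGs in edgeR with TMM factors, 0 with an unadjusted p under 0.05 and 0 in DESeq2. With total counts 1 was called as lower.

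Most of the called flavonoid genes were glycosyltransferases listed as UDP-glucose flavonoid 3-O-glucosyltransferases, enzymes that attach sugars to flavonoids. Of 12 tested, 4 were higher and 1 was lower (41.7% called, against 8.57% of all genes). FtPinG0001031700.01, the most abundant, had 43.5, 59.7 and 42.4 TMM-scaled FPKM at 19 DPA, against 17.2, 32.2 and 18.5 at 13 DPA (log2 fold change 1.10 ± 0.30, adjusted p = 0.0483). Its call held in 8 of the 19 alternative fits and limits. FtPinG0006615400.01 had 18.1, 22.1 and 19.9 FPKM at 19 DPA, against 6.14, 9.02 and 5.10 at 13 DPA (1.57 ± 0.24, adjusted p = 0.01), with the smallest SE among these 5 genes. FtPinG0003585500.01 had 3.88, 3.66 and 4.39 FPKM at 19 DPA, against 0.839, 1.79 and 0.786 at 13 DPA (1.81 ± 0.32, adjusted p = 0.0142), and FtPinG0007326600.01 had 1.70, 2.73 and 3.0, against 0.207, 0.753 and 0.505 (2.34 ± 0.49, adjusted p = 0.0226). The gene that fell, FtPinG0003585900.01, was scarce, with 4, 4 and 0 counts at 19 DPA, against 41, 59 and 38 counts at 13 DPA (-3.17 ± 0.85, adjusted p = 0.047, and 0.0867 without 13 DPA replicate 2). At 25 DPA FtPinG0003585500.01 stood at 20.9, 25.7 and 30.6 FPKM and FtPinG0001031700.01 at 77.7, 108 and 126 FPKM.

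**Figure D4:**
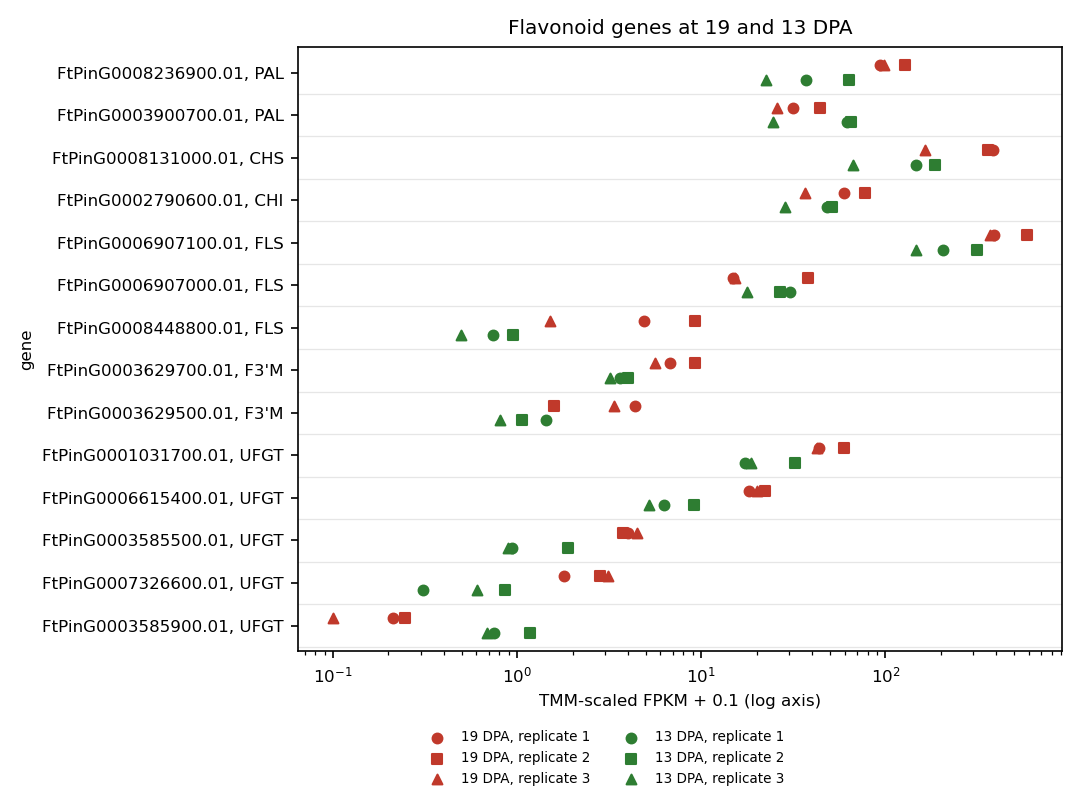
Levels of 14 flavonoid genes in pathway order (F3'M, flavonoid 3'-monooxygenase; UFGT, UDP-glucose flavonoid 3-O-glucosyltransferase), as TMM-scaled FPKM + 0.1 on a log axis. Red symbols are the 19 DPA libraries and green symbols the 13 DPA libraries (circle, square and triangle for replicates 1, 2 and 3); FtFLS (FtPinG0006907100.01) lies between 368 and 589.6 at 19 DPA and between 146 and 314 at 13 DPA.

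Starch synthases, which lengthen the glucan chains of starch, gave 0 DEGs among 17 tested, with a median log2 fold change of -0.08 (1 gene had an unadjusted p under 0.05, and DESeq2 called 0). The 2 granule-bound WAXY genes, which make amylose, were not called. FtPinG0000380300.01 had 26.5, 17.9 and 18.3 TMM-scaled FPKM at 19 DPA, against 20.8, 44.1 and 22.3 at 13 DPA, and FtPinG0007470100.01 had 8.89, 6.47 and 8.71, against 8.44, 9.39 and 7.70, both with overlap. SS4 (FtPinG0008723400.01) had 9.86, 10.3 and 10.1 FPKM at 19 DPA, against 7.30, 9.82 and 7.51 at 13 DPA, slightly above in every library (log2 fold change 0.30 ± 0.17, adjusted p = 0.312).

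Several starch synthase genes followed the replicate number more than the stage. The most abundant member, FtPinG0009838000.01, had 27.8, 1.67 and 1106 TMM-scaled FPKM at 19 DPA, against 73.1, 14.4 and 674 at 13 DPA, so that both libraries numbered 3 stood far above the other 4. Chosen after their values were seen, FtPinG0003226800.01 (3.91, 2.03 and 46.5 FPKM at 19 DPA, against 10.2, 3.74 and 60.2 at 13 DPA), FtPinG0003227000.01 (0.392, 0.454 and 7.05, against 0.186, 0.341 and 10.4) and FtPinG0005109900.01 (6.93, 6.41 and 62.1, against 9.42, 6.96 and 65.3) had the same pattern. These 4 are among the 82 genes that were at least 4-fold higher in both libraries numbered 3, of which 0 were DEGs in edgeR without pairing (0 had an unadjusted p under 0.05, and DESeq2 called 0) and 3 were called in the paired fit. Genes picked for a replicate that stands apart at both stages have a wide spread within each stage, so the count without pairing is a description. The 82 genes held 0.101%, 0.0236% and 1.72% of the counts at 19 DPA, against 0.256%, 0.0965% and 1.80% at 13 DPA. FtPinG0000359400.01 had its highest level in 19 DPA replicate 3 and was not called, at 51.2, 14.1 and 954 FPKM at 19 DPA, against 27.97, 13.1 and 61.2 at 13 DPA. The list's share of the counts was 0.0736%, 0.0424% and 0.504% at 19 DPA, against 0.137%, 0.0899% and 0.476% at 13 DPA (exact permutation test, p = 0.7). With pairing, 1 starch gene was called, FtPinG0005368600.01, at 3.75, 2.87 and 10.4 FPKM at 19 DPA, against 12.7, 6.71 and 16.02 at 13 DPA (adjusted p = 0.0226 in the paired fit and 0.201 without pairing).

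**Figure D5:**
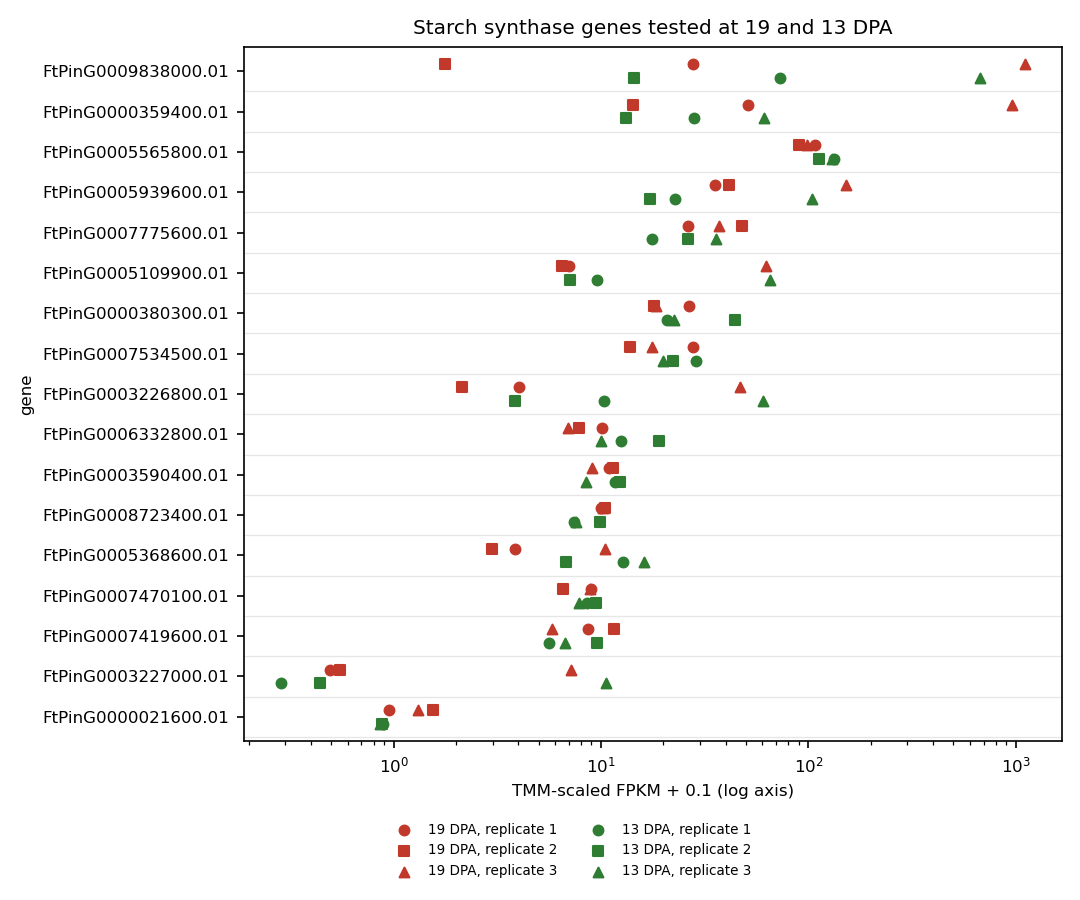
Levels of the 17 starch synthase genes tested, ordered by their mean over the 6 libraries, as TMM-scaled FPKM + 0.1 on a log axis. Red symbols are the 19 DPA libraries and green symbols the 13 DPA libraries; the triangles (replicate 3) of both stages stand apart from circles and squares in FtPinG0009838000.01, FtPinG0005109900.01, FtPinG0003226800.01 and FtPinG0003227000.01.

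Of the storage protein genes, the 3 that the study's text names by identifier (a pair of glutelin genes and a globulin gene) were examined. Its other storage protein genes, mostly globulins, were not analysed here, so these values say nothing of storage protein genes as a group. The 3 gave 0 DEGs in edgeR with TMM factors and no block (2 had an unadjusted p under 0.05, and DESeq2 called 2). The glutelin gene FtPinG0008579200.01 had 43.3, 54.5 and 36.9 TMM-scaled FPKM at 19 DPA, against 50.9, 127 and 39.7 at 13 DPA, where replicate 2 was the highest (log2 fold change -0.69 ± 0.40, adjusted p = 0.316). The glutelin gene FtPinG0000417000.01 had 3.16, 3.71 and 2.77 FPKM at 19 DPA, against 5.72, 23.01 and 5.42 at 13 DPA, with all 19 DPA libraries below (-1.82 ± 0.53, adjusted p = 0.062). The edgeR fit with the replicate block over 9 libraries called it as lower (adjusted p = 0.0499), but the paired fit of 6 libraries did not (0.054). The globulin gene FtPinG0004288700.01 was barely detected, with 1, 24 and 5 counts at 19 DPA, against 1, 0 and 3 counts at 13 DPA. The 3 genes summed to between 39.8 and 59.3 FPKM at 19 DPA (median 46.5), against 45.2 and 150 at 13 DPA (median 56.7), and the globulin gene was at 0 in 1 library of 13 DPA. Most of this sum came from FtPinG0008579200.01, so it is not a measure of the seed tissue as a whole.

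Genes of the fruit hull and of organ identity were read as markers of other tissues in the samples. The 3 NST genes, NAC factors that switch on secondary walls, summed to 27.7 to 44.7 TMM-scaled FPKM at 19 DPA (median 29.4), against 11.7 to 41.3 at 13 DPA (median 38.6). None of the 3 was at 0 in any of these libraries, and none was called in edgeR with TMM factors or in DESeq2 (0 had an unadjusted p under 0.05). With total counts 1 was called as lower. FtNST1 (FtPinG0000381200.01) had 0.506, 0.964 and 0.397 FPKM at 19 DPA, against 1.66, 3.86 and 0.562 at 13 DPA, FtNST1-2 (FtPinG0002596000.01) had 20.1, 9.35 and 11.9, against 26.7, 18.9 and 8.55, and FtNST2 (FtPinG0007471500.01) had 24.1, 19.1 and 15.5, against 12.9, 15.8 and 2.55. The 7 MADS-box genes, relatives of floral organ identity factors, summed to 283 to 393 FPKM at 19 DPA (median 385), against 306 to 556 at 13 DPA (median 435), and were all detected in every library. FtSEP1-2 (FtPinG0005096000.01) fell to 14.8, 10.8 and 6.92 FPKM at 19 DPA, against 32.7, 36.4 and 23.4 at 13 DPA, with no overlap (log2 fold change -1.51 ± 0.28, adjusted p = 0.0166). It was the only DEG among the 20 RT-qPCR genes, and that count was 0 without 13 DPA replicate 1 or without 19 DPA replicate 2. In the paired fit FtCHS and FtFLS were called as well. The most abundant MADS-box gene, FtAGL (FtPinG0002495300.01), had 166, 138 and 123 FPKM at 19 DPA, against 216, 283 and 155 at 13 DPA, with overlap. In whole seeds, fewer cells of a type and less RNA per cell cannot be told apart, and the part of a changing tissue share in these results was not tested.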

How the data were processed

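RNA was sequenced from whole seeds at 3 stages with 3 replicates each. The deposited values are counts of reads on each gene, which the authors made. Reads were aligned with TopHat2 2.0.12 and Bowtie2 2.0.6 (per the submitters' processing notes), and new genes came from an assembly. How reads were assigned to genes, with or without strand, and how those with several matches were handled is not stated in the material used, so near-identical copies may share reads. The deposited FPKM were computed by the authors from these counts, gene length and library total, and served here only to derive gene lengths, which agreed across libraries. TMM-scaled FPKM are counts divided by length and TMM-scaled library size.

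The counts of all 9 libraries were fitted in edgeR 4.0.16 (R 4.3.3; TMM, filterByExpr, robust quasi-likelihood test, no block), with Benjamini-Hochberg adjustment across the 23609 tested genes. The filter left out 10331 genes, of which 3719 had no count. A DEG needed an FDR up to 0.05 and a log2 fold change of 1 or more in size, a limit read from an incomplete sentence in the study's methods. The SE was obtained from the log2 fold change and its F statistic. The p-values measure the spread between these libraries. The common coefficient of biological variation was 0.362.

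Genes named were those the study names, RT-qPCR genes, called members of each list, the most abundant member of a family, and of unlisted DEGs the 2 with the largest gain and the 2 with the largest loss in scaled counts. RT-qPCR genes and most abundant members that were not called are named in part. Members and lists were chosen with earlier results of these data known. Stages with the same replicate number came from the same plant only if the number marks it, so pairing rests on the deviations across genes (r of 0.35, 0.49 and 0.59). The numbers of 25 DPA libraries did not pair in this way (r of -0.03, 0.01 and 0.13 with 13 DPA), so the paired fit used 6 libraries. The comparison was repeated with DESeq2 1.42.0, with upper-quartile and RLE factors, unscaled totals, TMM factors after removing the top 50 genes, no filter, no fold limit, 6 libraries, the replicate block and each library left out. The scripts were tested on simulated data. Group shares of counts were compared by exact permutation tests in scipy 1.17.1. Intervals were not computed for single libraries, and 0 counts allow up to 3.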

Additional observations from a re-analysis of the deposited data

How the results depend on the processing

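RLE factors, upper-quartile factors, TMM factors computed after removing the top 50 genes, an absent filter and an absent fold limit left the numbers of DEGs (all, higher, lower) within 1.5 times the values given. DESeq2 called 3246 genes (1666 higher), with 36 phytohormone, 2 RT-qPCR and 2 storage protein genes. Total counts called 7941 (595 higher, 7346 lower), with 78 phytohormone, 5 starch, 6 RT-qPCR and 2 storage protein genes; this scaling moves the median of all genes to -0.85, against -0.03, and the share of higher calls to 7.49%, against 47.9%. The 6 libraries alone called 1302 (533 higher), with 3 flavonoid genes. With the replicate number as a block, the 6 libraries called 3424 (1762 higher, 1662 lower), with 41 phytohormone, 1 starch and 3 RT-qPCR genes. The block over 9 libraries called 2743 genes, among them 35 phytohormone, 2 RT-qPCR and 1 storage protein gene. Among the genes named, the blocked 6-library fit changed no other call than those given in the report.

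Leaving out each library in turn gave 402 to 3065 DEGs (125 to 1747 higher, 277 to 1318 lower), 5 to 38 phytohormone, 1 to 10 flavonoid, 0 to 1 starch and 0 to 2 RT-qPCR DEGs and 0 storage protein DEGs. The starch gene appeared without 19 DPA replicate 3. The differences in share of counts, in percentage points, ran from 18.9 to 25.4 for the 10 most abundant genes, -0.0175 to 0.016 for the flavonoid, -0.388 to -0.342 for the phytohormone, -0.0823 to -0.0353 for the RT-qPCR, -0.176 to 0.093 for the starch and -0.0118 to -0.0051 for the storage protein list. With the 50 most abundant genes taken out of the total, the RT-qPCR difference turned to 0.0514 and the starch difference to 0.0902, and the share of the 10 most abundant genes has no value.

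Of 73 named genes under 19 alternatives, 1155 of 1385 values kept direction and call, 164 lost and 35 gained a call, and 31 turned direction. With total counts the log2 fold change became -0.11 for FtPinG0002311400.01, -0.72 for FtPinG0002353900.01, -0.055 for FtPinG0002594300.01, -0.38 for FtPinG0002790600.01, -0.46 for FtPinG0003012600.01, -0.38 for FtPinG0005765500.01, -0.50 for FtPinG0008723400.01 and -0.30 for FtPinG0009838000.01. With the replicate block it became -0.94 for FtPinG0009838000.01 (-1.22 in 6 libraries) and 0.0047 for FtPinG0003227000.01 (0.10 in 6 libraries). Over the fits that leave out 1 library, the log2 fold change of the genes that turned ran from -0.45 to 0.0671 for FtPinG0001214600.01, -0.26 to 0.38 for FtPinG0002353900.01, -0.77 to 0.0043 for FtPinG0002596000.01, -0.28 to 0.0467 for FtPinG0004315700.01, -0.79 to 0.32 for FtPinG0005799600.01, -0.73 to 0.0976 for FtPinG0006907000.01, -0.16 to 0.0507 for FtPinG0007470100.01, -4.09 to 3.11 for FtPinG0009838000.01, -0.0431 to 4.05 for FtPinG0000359400.01, -2.02 to 1.62 for FtPinG0005109900.01, -3.04 to 1.32 for FtPinG0003226800.01 and -3.10 to 3.32 for FtPinG0003227000.01. The causes were not tested.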
